A study of Mus musculus with 10 samples.

Results

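The substitutions that AID leaves in mouse B cells with intact UNG were measured at the C:G positions, 90 C and 153 G, of a 560-position fragment of the immunoglobulin switch region Smu. The positions were chosen by base alone. Every C or G of the deposited tables was taken except among 6 positions (225, 376, 454, 455, 486 and 560). At 5 of those 6 the AID-/- tables list another reference base than the UNG tables, and the last lay at the shallow end of the fragment. Spleen B cells of UNG+/+ mice (4 libraries) and of AID-/- mice (2 libraries) had been labelled with CFSE, a dye that is diluted at each division, and kept for 4 days in LPS, IL4 and BAFF. In both genotypes the cells sequenced were those sorted for at least 5 divisions. The AID-/- cells lack the deaminase and serve as the negative control. No UNG-/- level is compared here, but 4 UNG-/- libraries entered the shared estimate of spread and the filters on reads and coverage. The labels do not say that each library came from its own mouse, so the tests below measure the spread between libraries, which may be technical. Cells were pooled within a library, and a cell type was given by the labels alone because the files hold no expression values.

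AID (activation-induced cytidine deaminase) turns cytosine in exposed DNA into uracil, most often within WRC motifs, where W is A or T and R is A or G. Uracil that is replicated over is read as thymine and leaves a C:G to T:A transition. UNG, the main nuclear uracil-DNA glycosylase, removes the uracil, and translesion polymerases that copy past the empty site can insert any base, so that transversions also arise. REV1, a deoxycytidyl transferase, is known for C:G to G:C changes opposite such sites. In Smu these lesions also lead to the breaks of class switch recombination.

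Each C was read on the strand that carries it, so a G of the reference stands for a C on the complement. A name such as C282 or G451 gives the reference base and its position in the deposited tables. Disjoint classes were set by the bases before the C. AGCT (12 positions) is a palindrome that carries a WRC motif on both strands. The other WRC positions were WGC outside AGCT (32) and WAC (30). The remaining classes were SRC (40), WYC (65) and SYC (63), with S for C or G and Y for C or T. One further position, G559, sat at the edge and has no class. The WRC classes, called hotspots here, hold 74 positions, 33 on C and 41 on G.

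Sequences are shown first for the hotspots on which the results turn. Each is 21 bases, 5′ to 3′, on the strand of the mutated C, with the WRC motif and the base after it in capitals. They are the reference bases of the deposited tables, and the sources used here give no genome build or coordinates for them. These 6 hotspots have T after the C, and they are among the 10 with the highest C:G to G:C excess.
C506: atgcgctaAACTgaggtgatt
C535: gtaagcaaAGCTgggcttgag
C392: actcataaAGCTtgctgagca
C282: aaggccacAGCTgtacagaat
G451: ctcagctgTGCTttttagagc
G40: tccctcctTACTgattctaaa
The next 6 were shown for contrast. They are also frequent targets of transitions, and their C is followed by A or C.
C546: tgggcttgAGCCaaaatgaag
C427: aggttgagAGCCctagtaagc
C530: ctgaggtaAGCAaagctgggc
C287: cacagctgTACAgaattgaga
C452: ctctaaaaAGCAcagctgagc
G525: gctttgctTACCtcagagtaa
A longer stretch, positions 446 to 545 on the reference strand, is printed because it holds 3 positions of each set. Its 19 capitals are the C and G positions of WRC motifs.
446 to 545: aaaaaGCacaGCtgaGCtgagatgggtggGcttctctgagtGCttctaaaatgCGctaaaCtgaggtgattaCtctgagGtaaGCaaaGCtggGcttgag

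UNG+/+ libraries held 112909908 to 255310423 quality-filtered base reads and AID-/- libraries 166000223 and 221955784. Median coverage per position was 156244 to 411288 and 257218 and 377685 reads, and the lowest coverage at a C:G position was 1173. UNG+/+ replicates 1 and 2 and AID-/- replicate 1 had 98.2 to 98.3% of bases passing the quality filter, against 99.0% in the other 3 of these libraries, so differences are also given within each of these quality classes. UNG+/+ libraries differed from each other by more than counting error (chi-square per position 5.79 to 11.5 for transitions), and the AID-/- libraries did so much less (1.22). For the same relative spread this value grows with the number of substituted reads, which were fewer in AID-/-. It therefore does not compare how reproducible the 2 groups were. Reads are PCR copies without molecular identifiers, so counting intervals would be too narrow and the SD between libraries is used instead. With 4 libraries against 2, an exact two-sided permutation test has 15 assignments and cannot give a p below 0.0667, so no class mean could pass 0.05.

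All 3 kinds of C:G substitution were measured, and they behaved differently over the fragment as a whole. Transitions occurred at 9.23, 8.08, 7.27 and 7.55 per 10000 reads in UNG+/+ replicates 1 to 4, against 1.08 and 1.16 in the AID-/- libraries. C:G to G:C changes occurred at 1.71, 1.49, 1.19 and 1.19 per 10000 against 0.426 and 0.472. The groups did not overlap for either type, with ratios of 7.17 and 3.10 and an exact permutation p of 0.0667 for each (adjusted over the 3 types, 0.1). C:G to A:T changes occurred at 2.55, 3.05, 4.19 and 3.14 per 10000 against 2.67 and 2.96. Here the groups overlapped, the difference was 0.417 per 10000 and the exact permutation p was 0.533. It was 0.0994 without UNG+/+ replicate 3, 0.645 without UNG+/+ replicate 1 and 0.271 without AID-/- replicate 1. Within the low and the high quality class the UNG+/+ libraries exceeded AID-/- by 7.57 and 6.25 per 10000 in transitions. The C:G to G:C differences were 1.17 and 0.717, and those of C:G to A:T were 0.132 and 0.703.

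**Figure D1:**
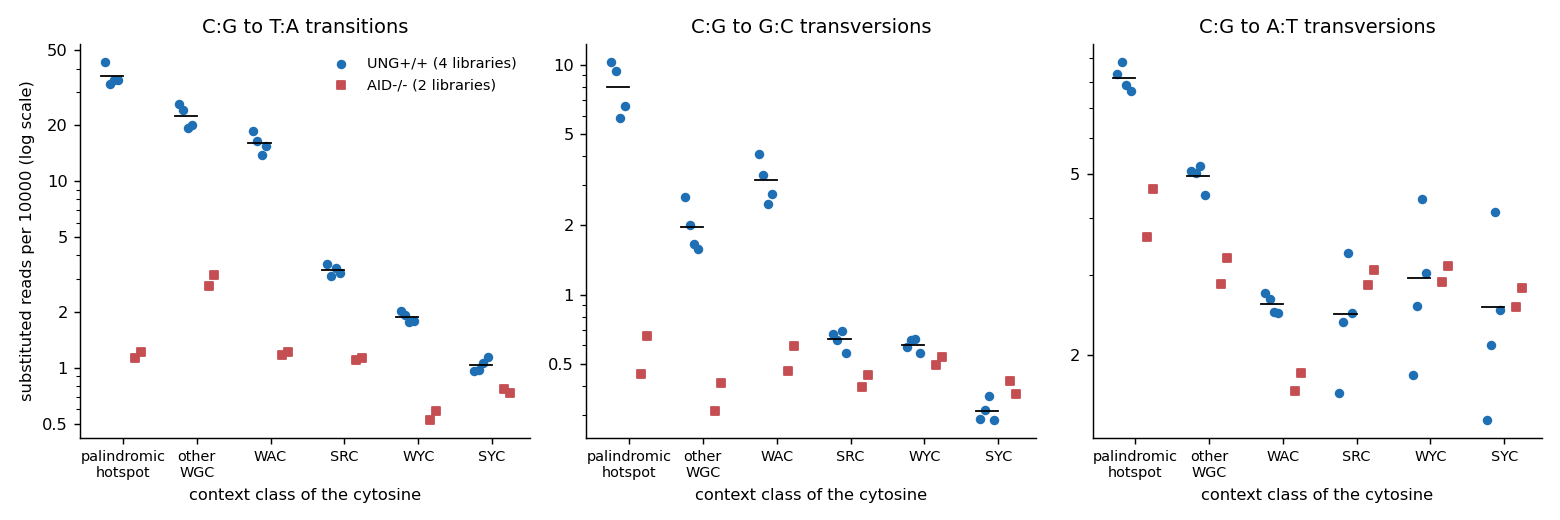
Substituted reads per 10000 (log scale) in each context class, for transitions, C:G to G:C and C:G to A:T. Blue points are the 4 UNG+/+ libraries with a line at their mean, and red squares are the 2 AID-/- libraries; the groups stand apart for all 3 types in the 3 WRC classes on the left, and C:G to A:T overlaps in the other classes.

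Transition levels were highest at palindromic hotspots and lowest at SYC, the context that AID is known to avoid. At AGCT they reached 43.4, 33.2, 34.6 and 34.6 per 10000, against 1.14 and 1.21 without AID, a mean of 36.4 ± 4.71 (SD, n = 4) that was 31.1 times the AID-/- mean. At WGC outside AGCT the mean was 22.3 ± 3.17 (SD, n = 4) against 2.93, and at WAC 16.01 ± 1.98 (SD, n = 4) against 1.20. SRC stood at 3.34 ± 0.224 (SD, n = 4) against 1.11 and WYC at 1.88 ± 0.117 (SD, n = 4) against 0.559. SYC was close to its background, with 1.04 ± 0.0837 (SD, n = 4) against 0.752. Every UNG+/+ library exceeded both controls in each of these classes, with an exact permutation p of 0.0667.

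The C:G to G:C excess was also highest at hotspots. Over AID-/- it was 7.48 per 10000 at AGCT, 2.62 at WAC, 1.61 at WGC outside AGCT, 0.220 at SRC and 0.0906 at WYC. At SYC the difference turned round, with 0.289, 0.315, 0.361 and 0.285 per 10000 in UNG+/+ and 0.419 and 0.367 in AID-/-, so that all 4 UNG+/+ libraries lay below both controls, by 0.0809 on average. Of the net excess summed over all C:G positions, in which positions below AID-/- cancel others, WRC positions held 95.8% for C:G to G:C and 88.5% for transitions, and the 12 AGCT positions alone held 39.1% and 25.2%. At AGCT the C:G to G:C levels were 10.3 and 9.37 per 10000 in the UNG+/+ libraries of low quality and 5.88 and 6.60 in those of high quality. This split between libraries moved with the quality class, whose part in it was not tested.

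An excess of C:G to A:T was also present at hotspots, although the mean over all positions hides it. At the 74 WRC positions they occurred at 4.66, 4.69, 4.54 and 4.18 per 10000, against 2.50 and 2.91 without AID, an excess of 1.81. At the 169 other C:G positions the same libraries had 1.62, 2.33, 4.03 and 2.69 against 2.74 and 2.99, a difference of -0.195. The UNG+/+ libraries spread over a wide range there, lowest in replicate 1 and highest in replicate 3, while at hotspots they kept together. By class the C:G to A:T excess was 4.02 per 10000 at AGCT, 1.90 at WGC outside AGCT and 0.843 at WAC, each with no overlap and an exact permutation p of 0.0667. At SRC, WYC and SYC it was -0.503, -0.0672 and -0.133, with overlap of the groups. Of the whole excess at WRC positions, transitions made up 80.9%, C:G to G:C 11.8% and C:G to A:T 7.34%.

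**Figure D2:**
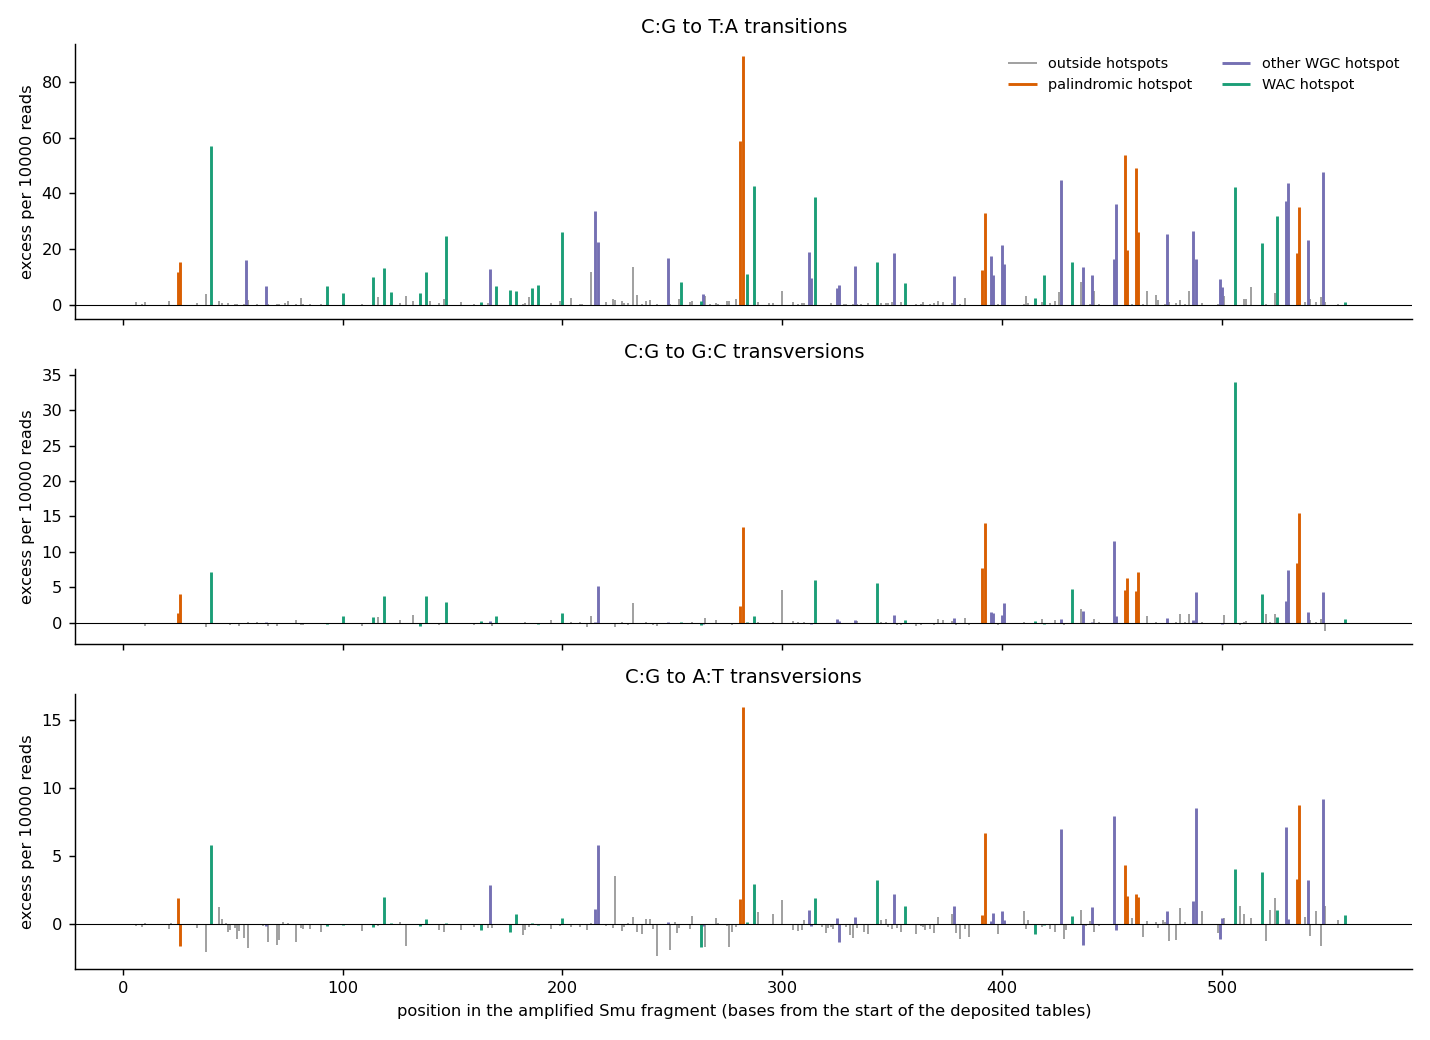
Excess of UNG+/+ over AID-/- (mean of 4 libraries minus mean of 2, per 10000 reads) at each C:G position along the fragment, by substitution type; colours mark the hotspot classes and grey the rest. C282 has the tallest transition line at 89.2 per 10000 and C506 the tallest C:G to G:C line at 34.0.

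Position by position, transitions were called higher in UNG+/+ at 135 of 236 tested C:G positions and lower at 0, by edgeR's quasi-likelihood test at a Benjamini-Hochberg adjusted p of 0.05. At an unadjusted p under 0.05 the count of lower positions was also 0, as it was with DESeq2 and with limma. Over all 1185 position and type combinations tested, A:T positions included, 17.0% were called higher and 0.675% lower. At A:T positions, 1.33% were called higher and 0.569% lower. Transitions passed at 12 of 12 AGCT positions, 32 of 32 other WGC, 28 of 29 tested WAC, 40 of 64 WYC, 17 of 40 SRC and 6 of 59 SYC. For C:G to G:C, 44 of 191 tested positions passed upward and 5 downward (40 and 13 with TMM scaling), and 36 of the 44 were in WRC. For C:G to A:T, 16 of 231 passed upward and 0 downward by edgeR (10 and 3 with TMM scaling), and 15 of the 16 were in WRC. Downward, 3 had an unadjusted p under 0.05, and DESeq2 called 1 and limma 0. A position was tested if 2 or more of all 10 libraries, UNG-/- included, held 10 or more reads of the change. The filter leaves the rarest changes out of these counts, and with the UNG+/+ and AID-/- libraries only, 1113 combinations passed it. Without that filter, all 4 UNG+/+ libraries exceeded both AID-/- libraries at 73 of 74 WRC positions for transitions. They did so at 40 in C:G to G:C changes and at 28 in those to A:T. The share over all 1662 combinations was 19.0%, and over A:T positions 7.50%. All 4 lay below both at 39 of the 169 positions outside WRC for C:G to G:C, where that share was 5.78% over all combinations and 4.18% over A:T positions.

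C282, the C of a palindromic hotspot, had the highest transition excess over AID-/-. It stood at 114, 85.6, 78.5 and 84.7 per 10000 in UNG+/+ against 1.68 and 1.54 in AID-/-. The fitted log2 fold change was 5.81 ± 0.345 (SE), with an edgeR adjusted p of 3.05e-09. Its partner on the other strand, G281, was second by excess, with 63.9, 56.0, 55.7 and 64.4 against 1.69 and 0.849. Outside palindromes G40, in a TACT context, had the highest excess, with 66.9, 57.6, 51.0 and 58.2 against 1.37 and 1.16. All 4 UNG+/+ libraries were far above both controls at each of these 3 positions. The next by excess were G456 with 53.9 per 10000, G461 with 49.3, C546 with 47.7, C427 with 44.8, C530 with 43.7, C287 with 42.6 and C506 with 42.3, all called.

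C530 shows how unequal the background was. Its transitions stood at 77.8, 79.3, 59.6 and 52.9 per 10000 in UNG+/+, but also at 21.9 and 25.6 in AID-/-, the cells without the deaminase. The log2 fold change was 1.496 ± 0.314 (SE, edgeR adjusted p = 0.00163). With TMM scaling, which uses library totals of substituted reads in place of coverage at the position, it was 0.84 and no longer passed. The 10 largest log2 folds were 5.93 at C392, 5.84 at C506, 5.81 at C282, 5.59 at G315, 5.58 at G281, 5.53 at G40, 5.37 at G524, 5.33 at G456, 5.29 at C452 and 5.26 at G451. G524 is a WYC position (ACCT) at a low level, with 4.57, 3.75, 4.12 and 5.12 per 10000 against 0.202 and 0, from 1 and 0 reads in the controls.

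Among 74 WRC positions, 2 were not called for transitions. C263, a TACG motif, stood at 5.34, 4.08, 3.83 and 5.70 per 10000 against 2.97 and 3.43 (log2 fold change 0.56, edgeR adjusted p = 0.346). G556, near the end of the fragment, had too few reads to be tested. Of the 6 SYC positions called for transitions, the 5 named by rule were C481, G371, G424, G238 and G230, with excesses of 1.65, 1.53, 1.45, 1.29 and 0.795 per 10000. The first 4 of these share 1 context, CTCT, and the fifth is CTCA.

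The base after the C went along with which substitution was left. This pattern was noticed in the values and is given as a description without a test. At WRC positions followed by T (33) the C:G to G:C levels were 8.03, 6.90, 4.75 and 5.30 per 10000, against 0.440 and 0.583 without AID. At WRC positions followed by any other base (41) they were 1.61, 1.18, 0.999 and 0.903 against 0.360 and 0.483. The excess was 5.73 per 10000 before T, and 0.816 before A, 0.831 before C and 0.237 before G. Transitions differed far less, with an excess of 24.1 before T, 19.7 before C, 16.8 before A and 6.96 before G. A C before G forms a CpG, and only 5 hotspots were of that kind. In the AID-/- libraries the C:G to G:C level was 0.512 before T, 0.571 before A, 0.262 before C and 0.456 before G.

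Set against transitions, the C:G to G:C share makes the same contrast in each library. The share is the C:G to G:C excess as a percentage of transition and C:G to G:C excess together. Before T it was 21.01, 21.3, 16.1 and 17.5% in replicates 1 to 4, and before other bases 5.56, 4.05, 3.96 and 3.05%. The lowest library before T stood above the highest library before the other bases. By following base the means were 19.0 ± 2.59% for T, 4.55 ± 1.74% for A, 3.89 ± 1.297% for C and 3.38 ± 1.57% for G (SD, n = 4).

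The contrast was also present outside the palindrome. At the 21 WRC positions followed by T outside AGCT the share was 20.8 ± 2.04% (SD, n = 4), and without C506 it was 16.4 ± 1.02%. By motif the share was 30.4% at AACT, 17.3% at AGCT, 17.0% at TGCT and 14.5% at TACT. It was 6.86% at AGCA, 5.91% at AACC, 3.86% at AGCC, 3.41% at TACC, 3.18% at AACA, 1.54% at TGCC, 0.879% at TACA and -1.04% at TGCA, where a value below 0 means less than in AID-/-. The 4 motifs ending in T stood above these 8 ending in A or C, whatever the bases before the C. Motifs ending in G rested on 1 or 2 positions each. TGCA and TGCC also rested on 2 positions each, and AACC and TACC on 3. AACT rested on 6 positions, among them C506, whose own share was 44.6%.

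**Figure D3:**
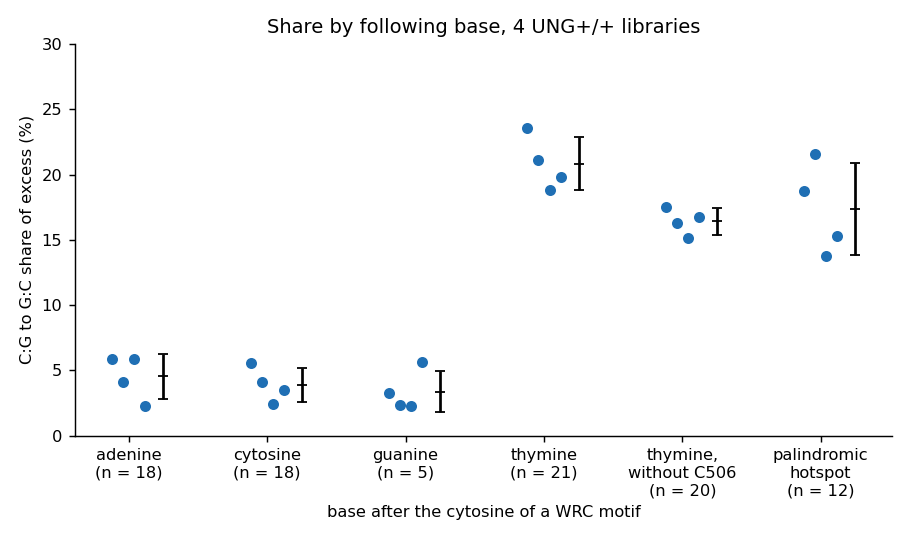
C:G to G:C share of the excess (percent of transition plus C:G to G:C excess) at WRC positions by the base after the C, with 1 point per UNG+/+ library and bars for mean and SD. The first 5 columns are outside AGCT; with all 21 positions the points before thymine lie between 18.9 and 23.6%, and those before other bases lie below 6%.

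Single positions give examples, but they were picked by their values and add no support to the pattern. Some go the other way. The share was 14.5% at C530, before A, but 3.87% at G281, 7.97% at G456 and 8.32% at G461, all before T. C506, in AACT, had C:G to G:C levels of 52.2, 37.3, 25.7 and 25.6 per 10000 against 1.18 and 1.12, and transitions of 50.2, 39.1, 38.5 and 44.2 against 0.537 and 0.894. At this hotspot the levels of both changes were close in replicates 1 and 2, and transitions were the higher in replicates 3 and 4. Its C:G to G:C log2 fold change was 4.91 ± 0.480 (SE, edgeR adjusted p = 3.82e-07). C427, in AGCC, had a like transition level of 55.1, 53.9, 40.3 and 35.9 against 1.32 and 1.69. Its C:G to G:C level was 1.07, 0.885, 0.666 and 0.752 per 10000 against 0.305 and 0.294. Transitions were higher at C427 in replicates 1, 2 and 3 and higher at C506 in replicate 4, while C506 exceeded C427 by more than 20 reads per 10000 in C:G to G:C in every UNG+/+ library. C287, in TACA, repeated the second pattern, with 3.69, 1.04, 1.23 and 1.18 for C:G to G:C against 0.367 and 1.18, an overlap with the controls.

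After C506 the highest C:G to G:C excesses were 15.4 per 10000 at C535, 14.05 at C392, 13.5 at C282, 11.5 at G451, 8.50 at G534, 7.68 at G391, 7.43 at C530, 7.23 at G40 and 7.17 at C462. Of these 10, only C530 has another base than T after the C. G451, in TGCT, was the steadiest, with 12.4, 11.9, 10.5 and 12.7 per 10000 against 0.319 and 0.344. C530 was the least steady, with 16.1, 7.02, 8.51 and 2.16 against 0.568 and 1.49. Of the 20 WRC positions highest in C:G to G:C excess, 18 were followed by T, and of all 44 positions called upward for this change, 34 were. T followed 32 of the 66 WRC positions tested for it and 56 of the 125 tested outside WRC.

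Among hotspots with a transition excess over 5 per 10000, the share at single positions ran from 3.87 to 44.6% before T (29 positions, median 18.4%) and from -2.27 to 16.4% before other bases (36 positions, median 1.64%). It was over 10% at 22 of the 29 and at 4 of the 36. The ranges overlapped. Neighbouring bases on the other side of the motif, coverage and place in the fragment also differ between these positions, and their part was not tested.

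**Figure D4:**
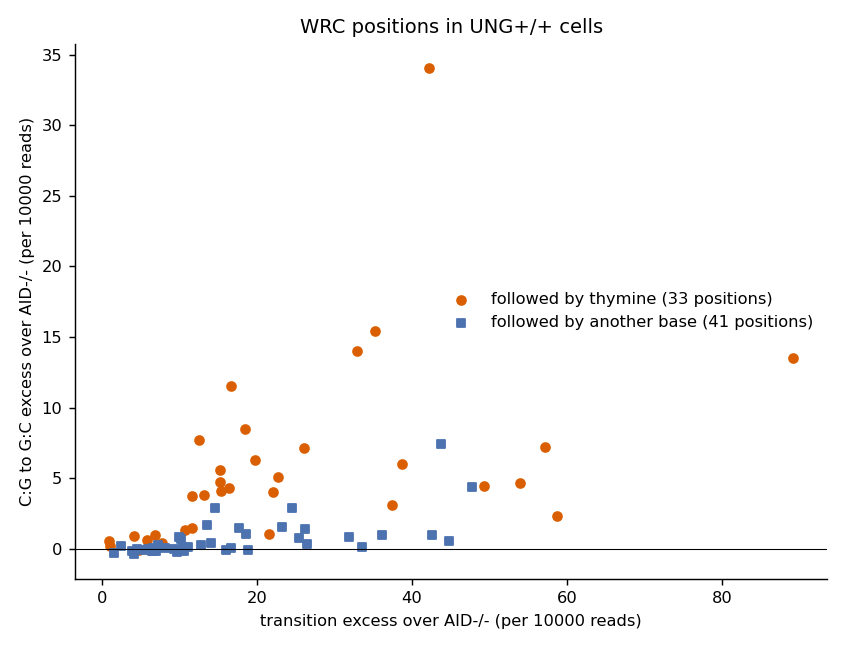
C:G to G:C excess against transition excess (both per 10000 reads, UNG+/+ mean minus AID-/- mean) at the 74 WRC positions, orange where thymine follows the C and blue where another base does. The blue squares lie below 3 per 10000 on the vertical axis except C530 at 7.43 and C546 at 4.36, and the orange point at 34.0 is C506.

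Outside WRC the same order appeared at a much lower level. The C:G to G:C excess was 0.358 per 10000 before T (71 positions) and -0.182 before A, -0.124 before C and -0.263 before G. All 8 non-WRC positions called upward for C:G to G:C were followed by T. G300, a WYC position in TTCT chosen here after its values were seen, had the highest excess of the 8, with 6.15, 5.23, 5.14 and 4.71 per 10000 against 0.610 and 0.764. Its transitions were 6.61, 4.30, 5.01 and 4.65 against 0.215 and 0.197, so both changes were about equally frequent there. Transitions outside WRC were called at 39 of 70 tested positions before T, 11 of 50 before A, 12 of 39 before C and 1 of 4 before G.

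The 5 positions called lower for C:G to G:C were all outside WRC and all at background levels, between 0.217 and 0.383 per 10000 in UNG+/+ against 0.476 to 0.853 in AID-/-. They were C224, C70, G230, G109 and G82, with log2 fold changes of -1.79, -1.15, -1.10, -0.99 and -0.93. C224 is next to position 225, and G230 lies 5 bp from it. At 225 the AID-/- tables list another reference base, so the C of C224 mostly stands before another base in the controls. None of the 5 calls held under every processing choice.

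Fewer positions were called for C:G to A:T, and most of these were again followed by T. C282 had 26.6, 20.7, 17.2 and 17.7 per 10000 against 3.95 and 5.19, a log2 fold change of 2.16 ± 0.343 (SE, edgeR adjusted p = 0.000104). The controls were higher here than for the other changes, and the fold at C282 is smaller than for its transitions. Among called positions C488 (TGCT) followed with an excess of 8.56 per 10000, then G451 with 7.92, G529 with 7.13, C427 with 6.99, C392 with 6.69, C216 with 5.81, G40 with 5.80, G456 with 4.34 and C506 with 4.03. C546 (AGCC) and C535 (AGCT) had excesses of 9.21 and 8.74 per 10000 but were not called (edgeR adjusted p = 0.0582 and 0.0583). Of the 15 hotspots called, 13 were followed by T, as were 32 of the 71 hotspots tested. By following base the C:G to A:T excess at WRC positions was 3.15 per 10000 before T, 1.68 before C, 0.232 before A and -0.780 before G. C427 is the exception among these 10, with C after its cytosine and the levels 9.63, 13.2, 9.95 and 6.86 against 2.29 and 3.56.

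The 3 hotspot classes differed in their C:G to G:C share, as far as 4 libraries can show, but their following bases differ too. The share was 17.3 ± 3.51% at AGCT, 14.8 ± 1.77% at WAC and 7.58 ± 1.05% at WGC outside AGCT (SD, n = 4). AGCT exceeded WGC by 9.76 ± 1.68 percentage points (SE) and WAC by 2.52 ± 1.20, and WAC exceeded WGC by 7.25 ± 0.542. Without UNG+/+ replicate 2 the difference between AGCT and WAC was 1.36. Each difference had the same direction in 4 of 4 libraries, and the exact sign-flip p was 0.125, which 4 libraries cannot undercut. C506 alone moved the WAC share, which was 9.91 ± 0.672% without it, below AGCT and closer to WGC. T follows the C at every AGCT position, but within WGC outside AGCT only at the 7 TGCT positions. Within WAC it follows only the 6 AACT and the 8 TACT positions. Among these motifs ending in T the share was 17.3% at AGCT, 17.0% at TGCT, 30.4% at AACT and 14.5% at TACT. Whether the classes differ apart from the following base was not tested.

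Strand was compared within the AGCT palindromes, where the C and the G stand in the same motif on opposite strands. The excess of C:G to G:C was higher at the C of the reference strand in all 6 palindromes. It was 13.5 against 2.36 per 10000 at C282 and G281, 15.4 against 8.50 at C535 and G534, and 14.05 against 7.68 at C392 and G391. The others were 4.12 against 1.45 at C26 and G25, 6.30 against 4.67 at C457 and G456, and 7.17 against 4.47 at C462 and G461. In 4 of the 6 the C was above the G in all 4 libraries, and in the other 2 it was so in 3 libraries. Transitions showed no such order, since C exceeded G at 4 palindromes and G exceeded C at 2, with 53.9 at G456 against 19.8 at C457 and 49.3 at G461 against 26.04 at C462.

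**Figure D5:**
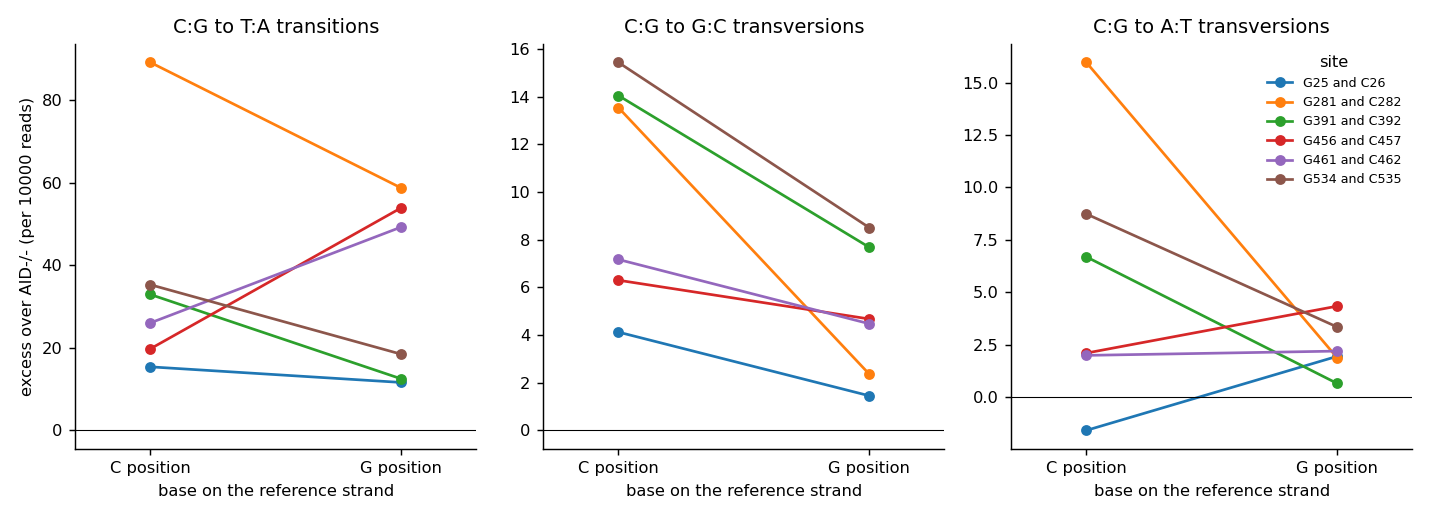
Excess of UNG+/+ over AID-/- (per 10000 reads) at the C and the G of each of the 6 palindromic hotspots, 1 line per site, for the 3 substitution types. In the middle panel, C:G to G:C, all 6 lines descend from C to G, while in the left panel 2 lines rise, to 53.9 and 49.3.

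Over all WRC positions the log2 ratio of the mean excess at C to that at G was 1.39, 1.24, 1.23 and 0.97 for C:G to G:C in replicates 1 to 4, a mean of 1.21 ± 0.0875 (SE, exact sign-flip p = 0.125). For transitions it was 0.32, 0.15, 0.14 and 0.10, a mean of 0.18 ± 0.0486 (SE, exact sign-flip p = 0.125), and it turned to -0.0549 without the 5% of positions highest in AID-/-. The C:G to G:C ratio was 1.06 at AGCT alone, 1.16 at the other hotspots and 0.87 without C506. At hotspots outside AGCT followed by T, the C:G to G:C excess was 6.89 per 10000 on C (9 positions) and 3.12 on G (12 positions), with transitions of 17.7 and 17.8.

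Along the fragment, hotspots in all 7 windows of 80 positions carried both changes above background. Transition excess at WRC positions was 21.4, 9.88, 12.7, 27.2, 14.5, 24.2 and 25.8 per 10000 from the first window to the last, with no steady slope. For C:G to G:C the excess was 2.56, 1.46, 0.784, 2.05, 2.89, 3.28 and 6.03. In each window and for both types, no UNG+/+ library overlapped the controls, with an exact permutation p of 0.0667. The last window, positions 481 to 560, held C506, and without it the C:G to G:C excess there was 3.88. It is also the shallowest, with library medians of 19057 to 86465 reads. Windows differ in their hotspots, and those followed by T numbered 3 of 5, 3 of 8, 4 of 10, 3 of 11, 7 of 12, 6 of 14 and 7 of 14 from the first window to the last, an order that the C:G to G:C excess did not follow throughout.

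The profile over hotspots recurred from library to library. Across the 74 WRC positions, Pearson's r between UNG+/+ libraries was 0.955 to 0.974 for transitions, 0.927 to 0.961 for C:G to G:C and 0.833 to 0.959 for C:G to A:T. These correlations are across positions that share libraries, sequence and coverage, and positions are not replicates. Between types the likeness of the mean excess was lower, with r of 0.483 between transitions and C:G to G:C, or 0.539 without C506, and 0.682 between transitions and C:G to A:T. The 10 positions with the highest excess held 31.5% of all transition excess and 55.1% of all C:G to G:C excess.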

How the data were processed

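Per the file headers, the authors deposited for each position the reads passing a base quality filter (Phred above 20), the count of reads with each substitution, and that count as a fraction of filtered reads. Recomputing the deposited fraction from the counts gave the same values within 1e-16. Tools listed by the submitters' processing notes are SAMtools 0.1.11, Novoalign 2.07.04 and CASAVA 1.7, with no roles. Genome build: not given in the sources used here. Per the labels' protocols, the fragment was amplified for 25 cycles and the libraries for 10 more, so polymerase errors enter every count. AID-/- libraries measure them, but on another allele at 5 positions. Motifs were read from the UNG tables. Those that span such a position differ in the controls, as with the AGCT of G456 and C457 (position 455) and the TGCT of C488 (position 486). The AID-/- background there comes from another sequence.

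A library's value is the mean over positions of the fraction, each position weighing alike, and excess subtracts the mean of both AID-/- libraries. Groups came from the sample titles. Single values were tested by exact two-sided permutation (4 against 2) or sign flips over 4 libraries, with Benjamini-Hochberg adjustment within each family. Positions were fitted with edgeR 4.0.16 (R 4.3.3) on counts over all 10 libraries and all positions with log coverage as offset, a step tested on simulated data. At position 225, 48.0, 48.2 and 45.7% of reads in UNG-/- replicates 1, 2 and 4 held another base than their reference, against 0.193% in replicate 3. The shared estimate of spread thus comes partly from libraries with mixed bases there. DESeq2 1.42.0 and limma 3.58.1 (log2 of the value per 10000 plus 0.1) were alternatives, as were TMM scaling, other filters, blocks and left-out libraries. TMM scaling dropped the coverage offset and used library totals of substituted reads, so its fold is not of the same quantity. Other values used Python 3.11.15, numpy 2.4.6, scipy 1.17.1, pandas 2.3.3 and matplotlib 3.10.9. Named positions were the 10 highest by excess among calls of each type, the 10 largest transition folds, up to 5 calls downward per type, uncalled WRC positions and up to 5 called SYC positions. The members, classes and rules were chosen with earlier results of these data known.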

Additional observations from a re-analysis of the deposited data

Results flagged for a closer look

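Among 87 sets of 4 UNG+/+ values examined, 3 had 1 library far from the others, and chance gives about 1 in 20. Replicate 1 was apart in each. At AGCT its transitions stood at 43.4 per 10000, with the others between 33.2 and 34.6. In the third window its C:G to G:C level at WRC positions was 1.72, with the others between 1.22 and 1.24. At C488 its C:G to A:T level was 19.1, with the others between 9.76 and 10.3.

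At all 5 positions left out for their reference base, AID-/- libraries held some reads with the base of the UNG tables. They made up 2.08% and 2.0701% of reads at position 225 in AID-/- replicates 1 and 2, and 2.34% and 2.30% at position 486. At positions 376, 454 and 455 such reads made up 0.461 and 0.367%, 0.142 and 0.0804%, and 0.142 and 0.0918% in replicates 1 and 2. No comparison above uses these positions, but the same AID-/- libraries give the background of the comparisons above. The source of these reads was not tested.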

How the results depend on the processing

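Of 584 repeats of the compared values and counts under an alternative, 550 kept the direction of a value or kept a count of calls within 1.5 times. No p threshold entered the check of the values, whereas the counts are of calls at a Benjamini-Hochberg adjusted p of 0.05. Of the 550, 31 were values that kept their direction but moved by over 1.5 times. Among them, AGCT minus WAC rose from 2.52 to 3.86 coverage-weighted, 6.19 without the 5% of positions highest in AID-/- and 7.44 without C506. Under the same alternatives, in that order, WAC minus WGC shrank instead, with WGC minus WAC values of -4.19, -2.83 and -2.32. The C:G to G:C excess at WAC was 1.51 under both of the first 2, and that of the last window 3.54 without the 5%. The overall C:G to G:C difference was 0.628 per 10000 coverage-weighted, against 0.945 with each position weighing alike. The overall C:G to A:T difference was 0.160 coverage-weighted, and that at SRC was -0.234 to -0.801 with 1 library left out. C:G to A:T values near 0 changed sign. The overall difference was -0.0152 per 10000 with the replicate block, the WYC difference became 0.00858 without the 5% of positions highest in AID-/-, and leaving out 1 library gave -0.552 to 0.315 for WYC and -0.659 to 0.236 for SYC. The transition strand ratio was 0.0626 coverage-weighted and became -0.0549 without that 5%. For these the cause was not tested. C:G to G:C calls downward (5) were 13 with TMM scaling, 2 with DESeq2, limma or no filter, 0 with a filter of 50 reads, 9 with the quality class as a block, 19 with the replicate block, 3 without positions within 5 bp of an excluded one, and 0 to 5 with 1 library left out (0 without AID-/- replicate 2). C:G to A:T calls upward (16, of which 15 in WRC) were 10 and 9 with TMM scaling and 5 to 16 and 5 to 15 with 1 library left out, the lowest without AID-/- replicate 1 (5 and 5) and replicate 2 (6 and 6). C:G to A:T calls downward (0) were 3 with TMM scaling, 1 with DESeq2, with 50 reads or with the quality class as a block, 18 with the replicate block, and 0 to 1 with 1 library left out. TMM moved the median log2 fold change over all 1185 features from 0.16 to -0.06.

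Only numbers 1 and 2 are shared by both genotypes, and the deviations of same-numbered libraries from their group means correlated at -0.0072 and 0.0004. With 2 AID-/- libraries the deviations mirror each other, so this check is weak and decides nothing about the block. The block in the position fits also ties UNG-/- libraries by number, which was not checked. It rests on the numbers alone. Of 46 named results, 16 lost their call under some alternative, 6 of them under one other than leaving out an AID-/- library, and 0 changed sign. Alternatives for strand and share that separate AGCT or leave out C506 were chosen after seeing the data. Depth limits the last window and every C:G to G:C value at single positions, where AID-/- reads numbered from 0 to 53 at the named ones.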
